A study of Mus musculus with 9 samples.

Results

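The genes described here are those of voltage-gated and potassium ion channels in the mouse spinal cord, 98 genes of the 14831 in the authors' expression table. They were chosen by gene symbol alone: the potassium channel genes (Kcn), the sodium channel genes (Scn), the calcium channel alpha1, alpha2-delta and beta subunit genes (Cacna, Cacnb) and the HCN genes, leaving out Kcnj8 and Kcnj10. Each had to reach 0.5 RPKM (reads per kilobase of transcript, scaled to the size of the library) in at least 3 of the 9 libraries. Of 132 genes of the mouse reference whose symbols match, 99 had a row in the table and the others were not analysed here; Kcnh6 stood at the table's lowest value in all 9 libraries and was left out.

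RNA came from spinal cords of wild-type C57Bl/6 females, 10 weeks of age. Each got an injection of 10 µl in the right lateral cerebral ventricle, and the cord was taken 2 weeks later. The injection held 500 µg of an antisense oligonucleotide (ASO) against mouse C9orf72 in 3 libraries, 500 µg of a control ASO in 3 and saline alone in 3; an ASO is a short modified nucleic acid that pairs with a chosen RNA and lowers its level. The labels do not state that a group's libraries are different animals, so p-values measure the spread between these samples only. Replicate numbers only name libraries.

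Voltage-gated channels open when the membrane potential changes. Sodium channels carry the upstroke of the action potential, potassium channels end it and set the resting potential and firing rate, and calcium channels turn it into transmitter release and signalling. In the cord they shape the firing of motor neurons and interneurons, while several inward rectifier and two-pore-domain potassium channels also work in glia.

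C9orf72, the target, stood at 2.68, 3.40 and 3.12 RPKM in the C9orf72 ASO libraries, against 11.2, 11.7 and 10.6 RPKM in the control ASO libraries and 10.5, 11.4 and 11.5 RPKM in the saline libraries. It fell to 27.5% of the control ASO mean (log2 fold change -1.84, SE 0.08; limma, Benjamini-Hochberg adjusted p = 1.83e-06). Depth was only estimated, from the step between low values, at 90.35 to 124 M reads per library. At that estimate a kilobase of transcript at 0.5 RPKM held 45.2 to 62.0 reads. All 9 neuron markers had values, with summed levels of 2643 to 3012 RPKM in the C9orf72 ASO, 2959 to 3183 RPKM in the control ASO and 2833 to 3006 RPKM in the saline libraries. The 5 of 6 motor neuron markers with values summed to 47.5 to 56.7 RPKM in the C9orf72 ASO, 49.5 to 56.4 RPKM in the control ASO and 47.8 to 56.9 RPKM in the saline libraries. Of 5 genes listed for sensory ganglia only Calca had a value, and of 7 listed for muscle only Acta1. The others, Scn10a, Scn11a, Scn4a and Cacna1s among them, were not analysed here. With the rest of each list without a value, Calca and Acta1 were not read as signs of these tissues. Calca had 16.8, 16.5 and 21.3 RPKM in the C9orf72 ASO libraries, 13.0, 12.04 and 10.3 RPKM in the control ASO libraries and 14.1, 13.5 and 10.2 RPKM in the saline libraries, and its part in the channel values was not tested.

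Saline replicates 1 and 2 stood apart for the channel genes. Of the 95 members at 0.5 RPKM or more in all 9 libraries, 38 had their highest value in saline replicate 2 (40.0%, against 13.6% of 13817 such genes) and none had its lowest there, while 28 had their lowest value in saline replicate 1 (29.5%, against 15.0%). Saline replicate 2 exceeded saline replicate 1 by a median of 0.18 on the log2 scale over the members, against -0.04 over all genes, and by 0.30 over the members with longer transcripts against 0.07 over those with shorter ones. Over all genes the same median was 0.11 for longer transcripts and -0.10 for shorter ones, so the split by length was not particular to channel genes. Kcna2, a delayed rectifier of the axon beside the node of Ranvier, had 31.5 RPKM in saline replicate 2 and 15.3 RPKM in saline replicate 1. Kcnh5, of the ether-à-go-go family, had 4.24 RPKM in saline replicate 2 and 1.81 RPKM in saline replicate 1. The coefficient of variation within the group was over 20% for 5 of the 95 members in the C9orf72 ASO group, 1 in the control ASO group and 12 in the saline group. These are 5.26%, 1.05% and 12.6% of the members, against 2.76%, 2.24% and 3.86% of all 13817 such genes. Counts and medians of the members against saline, and the genes at the extremes, are therefore also given without these libraries.

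**Figure D1:**
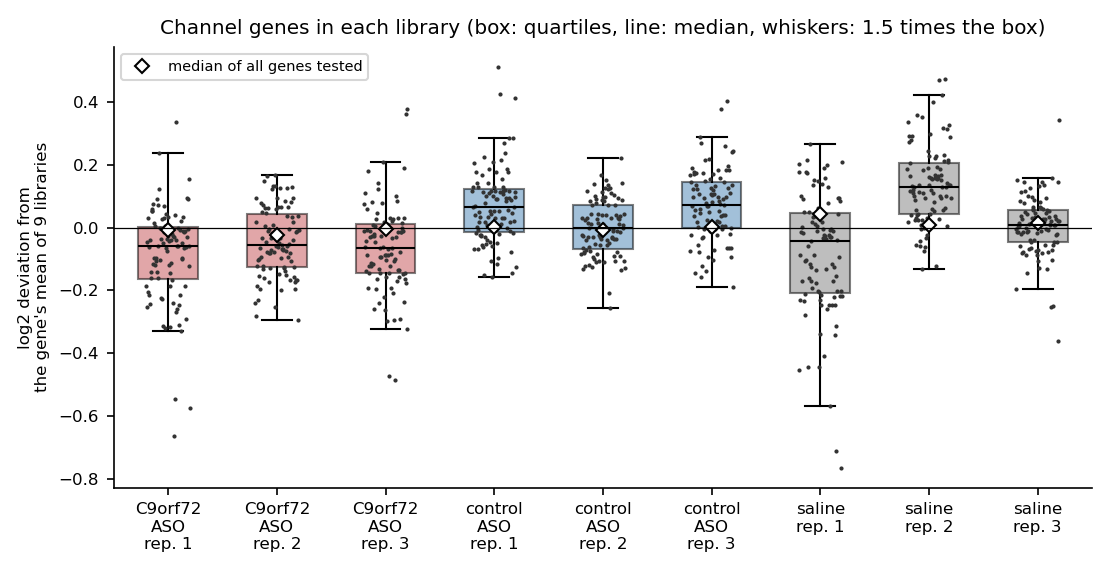
Log2 deviation of each channel gene from its mean over the 9 libraries (y axis), for the 95 members at 0.5 RPKM or more in all libraries (points), by library (x axis); boxes span the quartiles, the line is the median, whiskers reach 1.5 times the box, and diamonds are the median of all genes tested. The medians of the 3 C9orf72 ASO libraries lie below 0, those of control ASO replicates 1 and 3 above it, and saline replicates 1 and 2 on opposite sides.

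The channel genes were moderately expressed. The median member had 7.15 RPKM over the 9 libraries, against 7.96 RPKM for all 14430 genes tested; 9 members were over 50 RPKM, 28 at 10 to 50 RPKM, 51 at 1 to 10 RPKM and 10 under 1 RPKM. Of the 98, 95 reached 0.5 RPKM in every library. The table gives each value under 0.5 RPKM as 0.1, and 3 members were at this floor in some libraries. Cacna2d4 was at the floor in all 3 C9orf72 ASO libraries, in 2 control ASO libraries (0.550 RPKM in the other) and in 1 saline library (0.645 and 0.614 RPKM in the others). Kcnd3os, transcribed antisense to Kcnd3, was at the floor in 2 libraries of each group, and the silent potassium channel subunit Kcnv1 in 1 control ASO and 1 saline library.

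**Figure D2:**
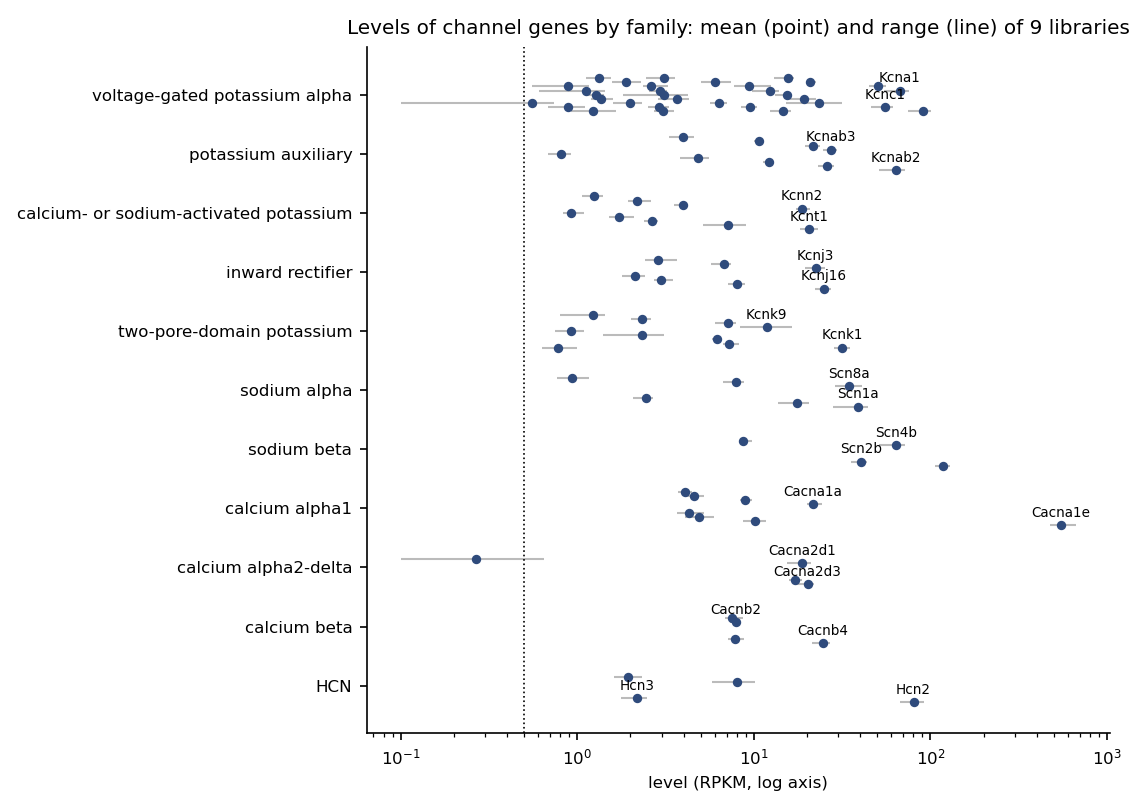
Level of the channel genes in RPKM (x axis, log scale) by family (y axis): points are means and lines the range of 9 libraries, the dotted line marks 0.5 RPKM, and 2 genes of each family are named. Cacna1e stands apart at 546 RPKM, and most families span more than 10-fold. Kcnd3os is not drawn.

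Among the pore-forming voltage-gated potassium subunits, 32 genes, Kcna1, of the axon beside the node, and Kcnc1, of fast-spiking neurons, were among the highest. Over the 9 libraries Kcna1 averaged 66.9 RPKM (54.2 to 76.0) and Kcnc1 55.3 RPKM (46.0 to 61.5), with overlapping ranges, and both lay above Kcna2 at 23.3 RPKM (15.3 to 31.5) without overlap. Kcnd2, which carries the A current of dendrites, was at 14.6 RPKM, and Kcnq3, a subunit of the muscarine-sensitive M current, at 9.38 RPKM. Of the auxiliary subunits, Kcnab2, a cytoplasmic beta subunit of Kcna channels, led with 63.4 RPKM (50.9 to 71.97), ahead of Kcnab3 at 27.4 and Kcnab1 at 26.0 RPKM, whose ranges overlapped.

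The other potassium channel families were led by genes of 20.5 to 31.5 RPKM. Kcnk1, a two-pore-domain leak channel, averaged 31.5 RPKM, and Kcnk9 and Kcnk3, the acid-sensitive leak channels, 11.8 and 7.17 RPKM. Kcnj16, an inward rectifier that assembles with Kcnj10 in glia, averaged 25.0 RPKM, and Kcnj3, a G protein-gated subunit, 22.4 RPKM. Kcnt1, a sodium-activated channel, was at 20.5 RPKM, Kcnn2, the small-conductance calcium-activated channel, at 18.7 RPKM and Kcnma1, the large-conductance one, at 7.14 RPKM.

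Of the sodium channel beta subunits, cell adhesion proteins that modify gating, Scn4b averaged 63.9 RPKM, Scn2b 40.5 RPKM and Scn3b 8.72 RPKM, an order in which no neighbours overlapped. Among the pore-forming subunits Scn1a at 38.7 RPKM (28.2 to 44.4) and Scn8a, the main subunit of the node of Ranvier, at 34.7 RPKM (28.7 to 40.9) overlapped, followed without overlap by Scn2a at 17.5, Scn3a at 7.89, Scn9a at 2.44 and Scn7a at 0.931 RPKM.

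Cacna1e, the pore of the R-type calcium channel, had the highest listed level of all members, with 555, 478 and 494 RPKM in the C9orf72 ASO libraries, 519, 534 and 619 RPKM in the control ASO libraries and 512, 665 and 538 RPKM in the saline libraries. Its mean was 25.2 times that of Cacna1a, the P/Q-type pore and the second calcium channel gene (21.6 RPKM), and ranked 34 among all genes. Which reads made up this level was not tested. Below Cacna1a came Cacna1g (T-type, 10.2 RPKM) and Cacna1b (N-type, 8.96 RPKM), which overlapped, then Cacna1i, Cacna1h, Cacna1c and Cacna1d at 4.08 to 4.90 RPKM, where each overlapped the next. Of the subunits that bring alpha1 to the membrane, Cacna2d3, Cacna2d1 and Cacna2d2 had 20.2, 18.7 and 17.1 RPKM and overlapped in turn, and Cacnb4 led the beta subunits at 24.7 RPKM. Hcn2 was the main pacemaker channel gene at 80.2 RPKM (67.6 to 91.9), without overlap with Hcn3 or Hcn4. Hcn3 and Hcn4, at 2.19 and 1.93 RPKM, overlapped.

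The first comparison sets the C9orf72 ASO against the control ASO. With 1 oligonucleotide of each kind, the lowering of C9orf72 and other effects of that oligonucleotide cannot be told apart. No channel gene passed an adjusted p of 0.05 in limma (0 of 98, with 0.0693% of all genes tested called), and the smallest adjusted p was 0.169. Fold changes were mostly below 0, in 81 of 98 members (54.1% of all genes tested), with a median of -0.10 against -0.01 over all genes. The 81 include Cacna2d4, which was at the floor in all 3 C9orf72 ASO libraries. Among the 95 members at 0.5 RPKM or more in all libraries, 80 were below 0. At an unadjusted p under 0.05 there were 14 members lower (7.71% of all genes) and 0 higher (6.39% of all genes), and 20 members had all C9orf72 ASO libraries below all control ASO libraries (11.8% of all genes) with 0 above (10.1%). With 1 library left out the 14 were 8 (C9orf72 ASO replicate 1 or control ASO replicate 1) or 7 (control ASO replicate 3). Over the libraries left out in turn, the share of all genes lower at that p ran from 4.08% to 10.1%. The 95% interval of the difference lay within 1.5-fold either way for 88 members and within 2-fold for 95. In bulk tissue, fewer cells of a type and less RNA per cell cannot be told apart. Neuron markers were below the control ASO in 8 of 9 cases, with a median of -0.08, and microglia markers were above it in 6 of 6, with a median of 0.19 and sums of 141 to 156 RPKM in the C9orf72 ASO, 120 to 128 RPKM in the control ASO and 117 to 131 RPKM in the saline libraries. Markers of endothelium and mural cells were below the control ASO in 6 of 6 (median -0.22), with sums of 42.5 to 46.8 RPKM in the C9orf72 ASO and 43.6 to 64.8 RPKM in the control ASO libraries. Oligodendrocyte precursor markers were below it in 4 of 4 (median -0.11), with sums of 63.95 to 73.8 RPKM in the C9orf72 ASO, 73.02 to 74.4 RPKM in the control ASO and 72.05 to 84.6 RPKM in the saline libraries. Blood markers were below it in 4 of 4 (median -0.30), with sums of 500 to 830 RPKM in the C9orf72 ASO, 479 to 1906 RPKM in the control ASO and 561 to 604 RPKM in the saline libraries. Motor neuron markers were below it in 4 of 5, while astrocyte (4 of 6), oligodendrocyte (4 of 6) and ependyma markers (3 of 4) were mostly above. The part of these lists in the result was not tested.

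The sodium channel beta subunits held the smallest p of the list. Scn4b, the subunit linked to resurgent sodium current, had 50.9, 61.2 and 51.6 RPKM in the C9orf72 ASO libraries, against 71.7, 69.2 and 68.9 RPKM in the control ASO libraries and 64.2, 70.8 and 66.4 RPKM in the saline libraries. Every C9orf72 ASO library was below every other library. The mean of 54.6 ± 5.80 RPKM was 78.0% of 69.9 ± 1.55 RPKM after the control ASO (SD, n = 3 each; log2 fold change -0.36, 95% interval -0.53 to -0.20, limma adjusted p = 0.169). Scn2b had 35.5, 36.4 and 38.5 RPKM in the C9orf72 ASO libraries, against 43.0, 43.2 and 43.5 RPKM in the control ASO libraries (-0.23, SE 0.06, adjusted p = 0.229) and 39.4, 43.8 and 40.8 RPKM in the saline libraries. Here too the C9orf72 ASO libraries lay below both other groups. Scn3b (-0.03) lay close to 0 against the control ASO.

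Among potassium channel genes, Kcnc1, which speeds repolarisation in fast-firing neurons, was lower in all 3 C9orf72 ASO libraries than in the 6 others. Kcnc1 had 46.0, 52.3 and 51.1 RPKM in the C9orf72 ASO libraries, against 60.3, 53.8 and 61.5 RPKM in the control ASO libraries and 54.2, 61.5 and 56.9 RPKM in the saline libraries (-0.23 against the control ASO, adjusted p = 0.257). With the length and GC trends of all genes removed it was at -0.09. Of the same subfamily, Kcnc2 was at -0.20 and Kcnc4 at -0.13.

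Kcnk3, the acid-sensitive leak channel, had 6.03, 6.20 and 6.55 RPKM in the C9orf72 ASO libraries, against 7.41, 7.78 and 7.15 RPKM in the control ASO libraries and 7.97, 7.56 and 7.90 RPKM in the saline libraries. Groups again did not overlap (-0.25 against the control ASO, SE 0.06, limma adjusted p = 0.214). Kcnab2 had 50.9, 60.2 and 60.5 RPKM in the C9orf72 ASO libraries, against 71.97, 64.4 and 66.8 RPKM in the control ASO libraries and 63.6, 68.2 and 64.6 RPKM in the saline libraries (-0.25 against the control ASO, SE 0.08, adjusted p = 0.248). Also among the 10 smallest p were Cacna1c, an L-type pore (-0.27), Kcne1l, a single-pass auxiliary subunit (-0.25), Kcnk12, a two-pore-domain subunit (-0.44), and Kcnj2, a strong inward rectifier (-0.20), with adjusted p of 0.27 to 0.297. Kcnk12 overlapped between the C9orf72 ASO (1.39, 2.16 and 2.21 RPKM) and control ASO libraries (3.08, 2.19 and 2.59 RPKM), and the other 3 did not. With length and GC trends removed Kcnk3 was at -0.16 and Cacna1c at -0.15, and without C9orf72 ASO replicate 1 Kcnk12 was at -0.24.

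**Figure D3:**
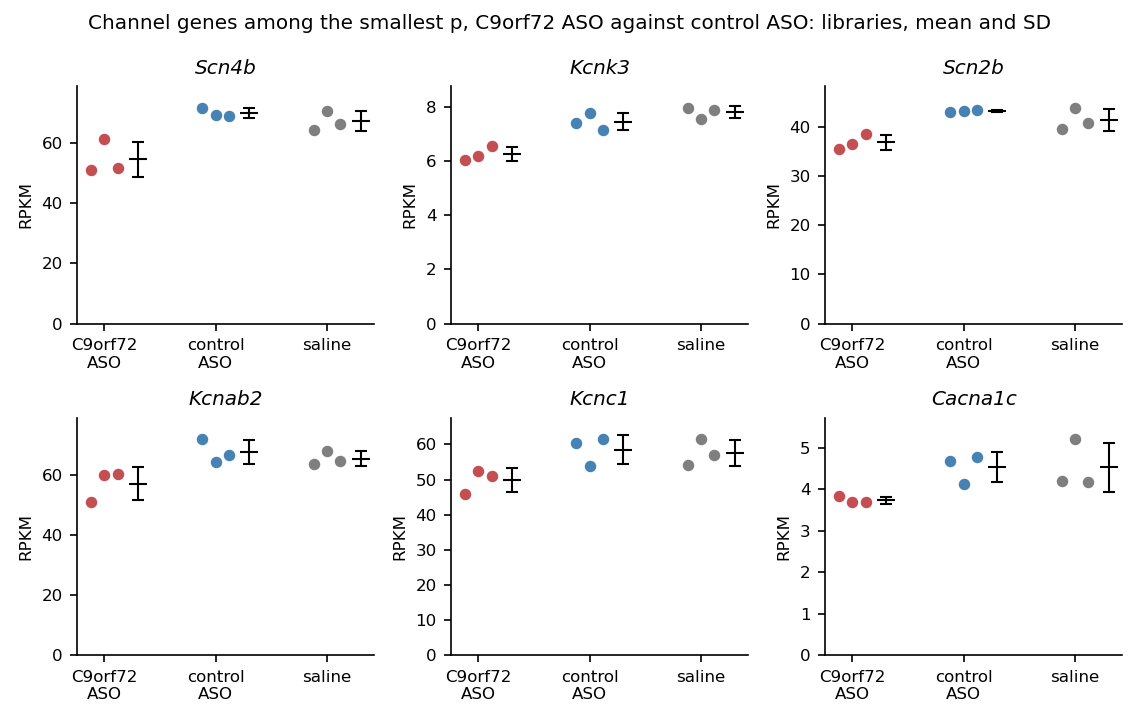
RPKM (y axis, from 0) of 6 channel genes among the smallest p against the control ASO, in C9orf72 ASO, control ASO and saline libraries (x axis); points are libraries and bars the mean and SD of 3. In each panel the 3 C9orf72 ASO libraries are below the 6 others.

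The promoters of Scn4b, Scn2b and Kcnc1 are shown because Scn4b and Scn2b lie on the same strand of chromosome 9, and Kcnc1 had a fold change close to that of Scn2b. Their windows differ in base composition, with Scn2b the lowest in GC and Kcnc1 the highest. Each window holds 250 bases before and 50 after the gene start (RefSeq, GRCm38.p6), on the plus strand: chr9:45138374-45138673 for Scn4b, chr9:45117626-45117925 for Scn2b and chr7:46396218-46396517 for Kcnc1. Capitals mark GC boxes (GGGCGG on either strand, 35.7% of all 32851 windows, 47.1% of 102 windows of 69 members).
Scn4b: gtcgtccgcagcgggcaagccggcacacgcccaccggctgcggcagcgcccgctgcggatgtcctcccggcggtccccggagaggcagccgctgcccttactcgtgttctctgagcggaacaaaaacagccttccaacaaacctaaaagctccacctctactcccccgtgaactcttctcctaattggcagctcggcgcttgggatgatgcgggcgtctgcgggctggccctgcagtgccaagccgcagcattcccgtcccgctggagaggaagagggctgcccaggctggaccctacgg
Scn2b: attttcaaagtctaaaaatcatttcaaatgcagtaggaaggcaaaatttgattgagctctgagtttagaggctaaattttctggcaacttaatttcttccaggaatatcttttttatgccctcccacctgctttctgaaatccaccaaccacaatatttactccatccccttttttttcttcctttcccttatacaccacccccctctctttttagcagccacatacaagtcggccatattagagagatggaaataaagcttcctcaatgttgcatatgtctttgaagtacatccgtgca
Kcnc1: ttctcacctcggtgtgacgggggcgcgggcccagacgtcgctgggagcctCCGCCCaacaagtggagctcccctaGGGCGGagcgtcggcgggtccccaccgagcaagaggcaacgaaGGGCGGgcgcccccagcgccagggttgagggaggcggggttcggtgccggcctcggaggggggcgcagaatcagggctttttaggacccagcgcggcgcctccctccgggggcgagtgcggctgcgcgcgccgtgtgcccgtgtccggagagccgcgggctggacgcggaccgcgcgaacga
GC content was 66.3% for Scn4b, 38.3% for Scn2b and 74.7% for Kcnc1 (median 52.7% of all windows, 60.8% of member windows). The windows held 26, 2 and 41 CpG in that order of genes (median 7 of all windows, 11 of member windows). The Kcnc1 window had 3 GC boxes and the others 0, and none of the 3 held a TATA box (TATAAA, 13.6% of all windows, 4.90% of member windows) or a cAMP response element (TGACGTCA, 1.79% of all windows).

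By family, all 10 sodium channel genes (median -0.17) had values below the control ASO. So did 15 of 16 calcium channel genes (median -0.08), with Cacna2d4, at the floor after the C9orf72 ASO, among them. The same held for 52 of 67 potassium channel genes (median -0.10). Among the last, 29 of 32 voltage-gated pores, 8 of 10 two-pore-domain genes and 7 of 7 inward rectifiers were below. By contrast, 4 of 9 auxiliary genes were below, and 4 of 9 grouped by symbol as calcium- or sodium-activated, a group that takes in Kcnu1. Scn1a (-0.19), Scn8a (-0.18) and Scn2a (-0.18) had adjusted p of 0.462 to 0.527. Scn2a, the pore of unmyelinated axons, did not overlap, at 17.1, 16.7 and 16.4 RPKM in the C9orf72 ASO libraries, against 19.0, 18.8 and 19.0 RPKM in the control ASO libraries. All 4 HCN genes were below 0 (median -0.13). With length and GC trends removed, 3 of 8 calcium alpha1, 1 of 4 calcium beta, 2 of 4 HCN and 3 of 4 sodium beta genes were below 0, and all 6 sodium alpha genes still were (median -0.09). Cacna1e was at -0.13 and Cacna1a at -0.10. Among the 95 members at 0.5 RPKM or more in every library, the highest fold changes were those of Kcnu1 (0.13), Kcnk5 (0.12), Kcnip3 (0.09), Kcng2 (0.08) and Kcnip4 (0.07), with adjusted p of 0.514 to 0.886. Kcnip3 and Kcnip4 are cytoplasmic partners of Kcnd channels. At the other end Kcnk9 (-0.39), Kcna2 (-0.35) and Kcna3 (-0.29) joined Kcnk12 and Scn4b, with adjusted p of 0.42 to 0.518. Without C9orf72 ASO replicate 3 Kcna2 was at -0.18, and without control ASO replicate 1 Kcnk9 was at -0.23 and Kcna3 at -0.17. Of the members at the table's floor in some libraries, Cacna2d4 was at -0.57 (SE 0.67) and Kcnv1 at 0.55 (SE 0.61) against the control ASO, at -1.24 and 0.59 for C9orf72 ASO against saline, and at -0.68 and 0.04 for control ASO against saline. These values depend on the floor and were kept out of the ranking.

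**Figure D4:**
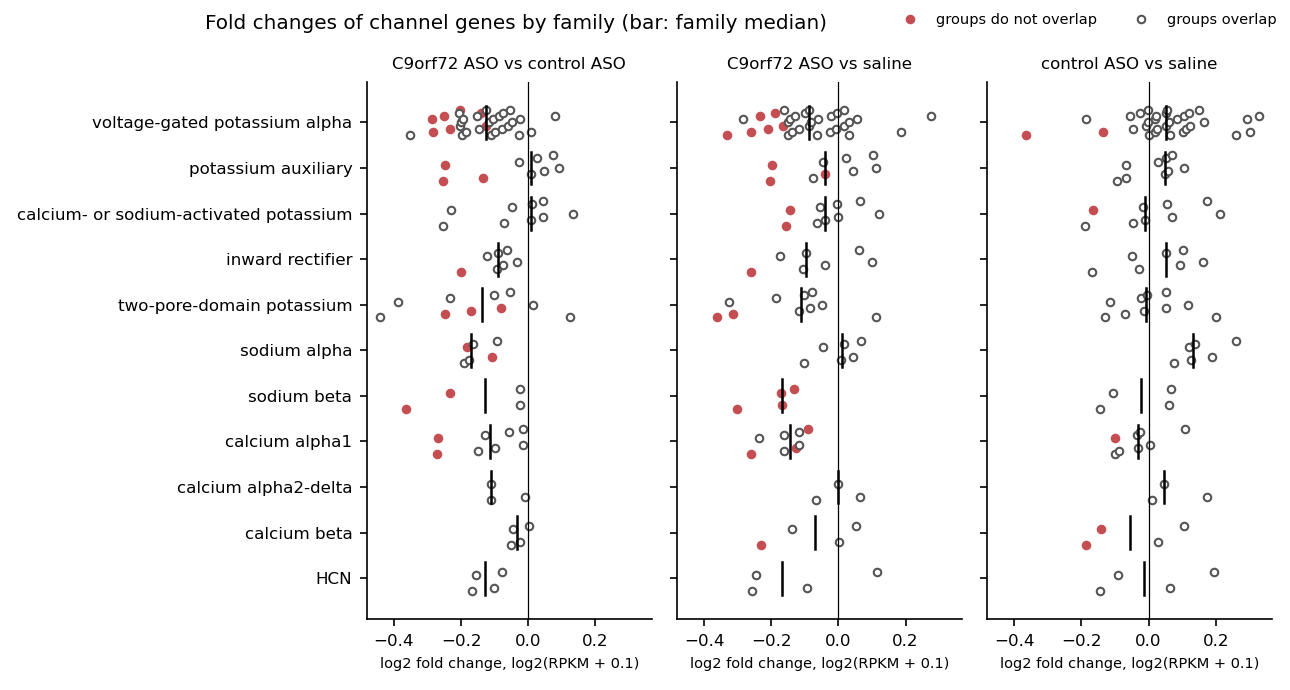
Log2 fold change of each channel gene on log2(RPKM + 0.1) (x axis) by family (y axis) in the 3 comparisons, each named as the group on top against its control, for the 95 members at 0.5 RPKM or more in all libraries; filled points are genes whose 2 groups do not overlap, and bars are family medians. Sodium alpha genes lie below 0 for C9orf72 ASO against control ASO and above 0 for control ASO against saline, where 1 of 6 was below 0 without saline replicate 1.

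Transcript length moved with these values. Channel transcripts are long, with a median of 4522.5 bases for the longest transcript, against 3395 bases over all genes tested. Of the members with longer transcripts, 46 of 49 had values below the control ASO (median -0.15), against 35 of 49 with shorter ones (median -0.07). Over the whole table, 77.3% of 4126 genes as long as the longer members were below the control ASO (median -0.07), and 45.0% of 9844 shorter genes (median 0.02). Across the 98 members the fold change had a Pearson correlation of -0.27 with log2 length, as a description, since the genes share their libraries. With the length and GC trends of all genes removed, 67 of 98 members were below 0 (49.9% of all genes) with a median of -0.04. In the same values 10 members were below without overlap (9.29% of all genes) and 10 were lower at an unadjusted p under 0.05 (6.94%), so both counts came nearer to the share of all genes. The part of length in single genes was not tested.

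**Figure D5:**
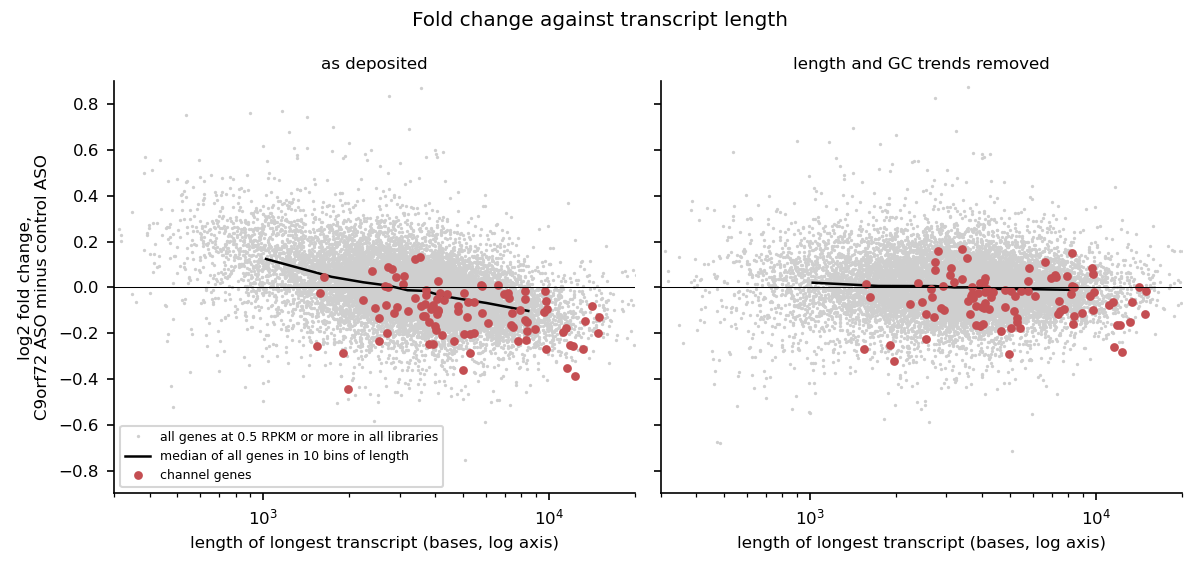
Log2 fold change of C9orf72 ASO against control ASO (y axis) by length of the longest transcript (x axis, log scale), as deposited (left) and with length and GC trends removed (right); grey points are all genes at 0.5 RPKM or more in all libraries that fall within the axes, red points the channel genes, and the line is the median of all genes in 10 bins of length. On the left the line falls with length and 80 of the 95 channel genes drawn lie below 0. Over all 98 members, including those not drawn, 81 are below 0 as deposited and 67 with the trends removed.

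Against saline, which differs from the C9orf72 ASO group also in having had no oligonucleotide, again no member passed in limma (0 of 98, with 0.0693% of all genes called). Fold changes were below 0 in 71 of 98 members (58.7% of all genes), with a median of -0.09 against -0.03. Among the 95 members at 0.5 RPKM or more in all libraries, which leave out Cacna2d4, 70 were below 0. At an unadjusted p under 0.05, 19 were lower (10.2% of all genes) and 0 higher (3.79%), and 22 were below without overlap (12.4%) and 0 above (5.61%). Without saline replicate 1, 88 of 97 members tested were below 0 (58.1% of all genes; median -0.13), 17 were lower at an unadjusted p under 0.05 (7.55%) and 30 were below without overlap (17.5%). Without saline replicate 2, 53 of 96 were below 0 (60.2%; median -0.03), 10 were lower at that p (9.57%) and 25 were below without overlap (19.4%). Without C9orf72 ASO replicate 1, 9 were lower at that p, the low end of a range of 9 to 26 with 1 library left out. Over the libraries left out in turn, the share of all genes lower at that p ran from 6.18% to 14.6%. With median log ratio scaling, 65 of 98 were below 0 (48.0%), 10 were lower at that p (6.6%) and 14 were below without overlap (8.14%). With length and GC trends removed, 53 of 98 were below 0 (49.8%), 7 were lower at that p (5.14%) and 8 were below without overlap (7.49%). Oligodendrocyte markers summed to 5578 to 6413 RPKM in the C9orf72 ASO, 5944 to 6211 RPKM in the control ASO and 6088 to 7154 RPKM in the saline libraries, the highest in saline replicate 1. Markers of endothelium and mural cells summed to 42.5 to 46.8 RPKM in the C9orf72 ASO, 43.6 to 64.8 RPKM in the control ASO and 68.0 to 86.9 RPKM in the saline libraries, all 6 below saline. The part of either list in the channel values was not tested.

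Kcnk3 was at -0.32 against saline (SE 0.06, limma adjusted p = 0.0874) and Scn4b at -0.30 (SE 0.08, adjusted p = 0.173). Cacnb1, the calcium channel beta subunit known from muscle, was at -0.23 (SE 0.06, adjusted p = 0.192). Cacnb1 had 6.90, 6.84 and 7.36 RPKM in the C9orf72 ASO libraries, 7.38, 7.17 and 7.21 RPKM in the control ASO libraries and 8.72, 7.80 and 8.31 RPKM in the saline libraries. It was thus below saline without overlap in both ASO groups. Kcnj12 (-0.26), Cacna1c (-0.26), Cacna1g (-0.24), Kcnc1 (-0.21) and Scn2b (-0.17) had adjusted p of 0.26 to 0.272. Kcnk4, a mechanosensitive leak channel, was at -0.36 and Kcnk12 at -0.33. With length and GC trends removed the values were -0.17 for Kcnk3, -0.15 for Kcnj12, -0.10 for Kcnk12, -0.08 for Cacnb1 and Cacna1g and -0.06 for Kcnc1. Cacna1c was at -0.16 without saline replicate 2 and Kcnk4 at -0.19 without C9orf72 ASO replicate 1. All 4 sodium beta genes were below saline without overlap (12.4% of all genes), at -0.30 to -0.13. With median log ratio scaling 2 of the 4 kept that (8.14% of all genes), and with length and GC trends removed 1 did (7.49%). Of the sodium alpha genes 2 of 6 were below 0 (family median 0.01), 6 of 6 without saline replicate 1 (-0.11) and 0 of 6 without saline replicate 2 (0.13). All 8 calcium alpha1 genes were below, from Cacna1c at -0.26 to Cacna1b at -0.09, but 4 of 8 with length and GC trends removed. Among the highest of the 95 members above the floor were Kcnh8 (0.28), Kcnh5 (0.19), Kcnu1 (0.12) and Kcne4 (0.11). Without saline replicate 1, Kcnh8 (-0.0051) and Kcnh5 (-0.089) lay on the other side of 0, and Kcne4 was at 0.05.

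The control ASO against saline gives the size of differences with no oligonucleotide against C9orf72. No member passed in limma (0 of 98, with 0.00693% of all genes called; smallest adjusted p 0.794). Members were below 0 in 40 cases (57.4% of all genes) and above in 58 (42.5% of all genes), with a median of 0.04 against -0.02. Among the 95 members at 0.5 RPKM or more in all libraries, 38 were below 0. At an unadjusted p under 0.05, 2 were lower (3.98% of all genes), Cacnb1 (-0.19) and Kcnt1 (-0.17), and 1 higher (1.37%), Kcnj3 (0.16). Below saline without overlap were 6 members (7.15%), and above were 0 (3.16%). All 6 sodium alpha genes were above saline (median 0.13), with Scn1a at 44.4, 40.8 and 42.8 RPKM in the control ASO libraries, against 28.2, 43.8 and 36.4 RPKM in the saline libraries, which overlapped. Without saline replicate 1 the sodium alpha median was 0.04 with 1 of 6 below 0, and without saline replicate 2 it was 0.26 with none below. Without saline replicate 1, 58 of 97 members tested were below 0 (54.6% of all genes; median -0.02), 2 were lower at an unadjusted p under 0.05 (1.18%) and 9 were below without overlap (9.34%). Without saline replicate 2, 28 of 96 were below 0 (59.0%; median 0.08), 4 were lower at that p (9.31%) and 18 higher (7.01%), and 10 were below (22.3%) and 28 above (14.5%) without overlap. Among the extremes of the 95 members above the floor were Kcnh8 (0.33), Kcnh5 (0.30), Kcna2 (0.29), Kcna3 (0.26) and Scn1a (0.26) on the high side, and Kcng2 (-0.36), Cacnb1 and Kcnmb4 (-0.19 each) and Kcnj12 (-0.17) on the low side. Without saline replicate 1 the high side lay at 0.05 for Kcnh8, 0.03 for Kcnh5, 0.05 for Kcna2, 0.20 for Kcna3 and 0.09 for Scn1a, and Kcnmb4 at -0.11. Without saline replicate 2 the same 5 genes of the high side lay at 0.50, 0.62, 0.57, 0.46 and 0.41 in that order. The 3 comparisons share their libraries in pairs, so their values are not independent.

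A list of channel partners and related genes that the choice by symbol left out gave 35 genes with values of 38 listed. It takes in the Cacng genes by their gamma family symbol, whether or not they act on these channels. Of the 35, 0 passed in any comparison. Values were below the control ASO in 30 of 35 (54.1% of all genes), with a median of -0.10. Below saline were 20 of 35 (58.7% of all genes), with a median of -0.04. For control ASO against saline 14 of 35 were below (57.4% of all genes), with a median of 0.03. The smallest p against the control ASO were those of Amigo1, a partner of delayed rectifier channels (32.4 ± 1.29 RPKM after the C9orf72 ASO and 37.3 ± 0.512 RPKM after the control ASO, SD, n = 3 each; -0.20, limma adjusted p = 0.247), Cacng7 (-0.31, adjusted p = 0.247) and Cntnap1, which organises the axon beside the node (-0.20, adjusted p = 0.254). Against saline they were Cacng8 (-0.29, adjusted p = 0.123), Nfasc, the cell adhesion protein of node and initial segment (-0.28, adjusted p = 0.173), and Dlg4, a scaffold of synapses (-0.26, adjusted p = 0.173). Kcnj10, the main glial inward rectifier and partner of Kcnj16, averaged 211 ± 1.88 RPKM in the C9orf72 ASO libraries, 216 ± 0.414 RPKM in the control ASO libraries and 204 ± 15.6 RPKM in the saline libraries (SD, n = 3 each).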

How the data were processed

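Spinal cord RNA was sequenced from strand-specific libraries, per the labels' protocols, with adapters removed by cutadapt 1.2.1 and reads aligned by GSNAP to mm9, per the submitters' processing notes. The counter, the gene annotation and the treatment of reads shared by related genes were not given in the labels or notes. The authors deposited 1 table of 14831 genes whose header names no unit; its values were read as RPKM, since low values of short genes (up to 350 bases) fall on steps of 1 read (54.7% to 65.0% within 0.1 of a whole read). Values under 0.5 RPKM stand at 0.1 in the deposited table (5160 values, 3.87%), which sets the limit for low genes. Symbols were matched to 14321 of the gene IDs, leaving 510 without one.

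Groups were compared by limma 3.58.1 under R 4.3.3 (mean trend, robust estimation, statmod 1.5.0) on log2(RPKM + 0.1), a scale that understates changes of low genes, in 1 fit of 9 libraries. The 14430 genes at 0.5 RPKM or more in at least 3 libraries entered, with 401 removed, and p-values were adjusted by Benjamini-Hochberg over all of them (threshold 0.05). The fit was tested on simulated data. No 2 libraries had identical values. Transcript length and GC came from GENCODE for GRCm38, another build than the authors', and were available for all 98 members. Promoter windows are RefSeq's.

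Some members are counted in their groups but not reported singly here. The other genes named are those with the smallest p up to 10, the 5 highest and 5 lowest fold changes per comparison among members at 0.5 RPKM or more in all libraries, the leading genes of each family and a set chosen for their roles; values of saline replicates, family extremes and partners named with values were chosen after they were seen. Channel members and gene lists were chosen with earlier results of these data known. Alternatives covered the pseudocount, the filter, the floor, scaling, length and GC trends, the test's settings and each library left out in turn. The counts of members below 0, without overlap and at an unadjusted p under 0.05 under the alternatives were added after seeing the data.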

Additional observations from a re-analysis of the deposited data

How the results depend on the processing

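No paired analysis was possible because neither the labels nor the table's columns carry replicate numbers. No member passed in any of the 3 comparisons under the 19 alternatives run, and the smallest adjusted p of a gene named was 0.0541 (Kcnk3 against saline). With length and GC trends removed, the median of the 98 members was -0.041 against the control ASO and -0.016 against saline, the genes below without overlap were 10 against the control ASO (9.29% of all genes) and 8 against saline (7.49%), and those lower than saline at an unadjusted p under 0.05 were 7 (5.14%). With median log ratio scaling 14 were below saline without overlap (8.14%) and 10 lower at that p (6.6%). With only the groups compared in the fit, 23 were lower than the control ASO at that p. The share of all genes in that fit is not given here, so this count is not read as a result about the members. Leaving out single libraries moved the medians between -0.13 and -0.09 (C9orf72 ASO against control ASO), -0.13 and -0.03 (C9orf72 ASO against saline) and -0.02 and 0.08 (control ASO against saline), and the counts below 0 between 78 and 84, 53 and 88, and 28 and 58 in the same order of comparisons. It moved the counts lower at an unadjusted p under 0.05 between 7 and 20 (4.08% to 10.1% of all genes), 9 and 26 (6.18% to 14.6%), and 1 and 5 (1.18% to 9.31%), and the counts below without overlap between 20 and 40 (11.9% to 23.1%), 22 and 33 (12.4% to 24.7%), and 6 and 14 (7.17% to 22.3%). The direction of single genes was followed for 44 pairs of gene and comparison, taken from the smallest p and the extremes. Among these pairs 4 values turned, each with a library left out. Against the control ASO they were those of Kcnk5 (-0.0051 without C9orf72 ASO replicate 1, up to 0.23 without C9orf72 ASO replicate 2) and Kcng2 (-0.14 without C9orf72 ASO replicate 3, up to 0.33 without C9orf72 ASO replicate 1). Against saline they were those of Kcnh8 (-0.0051 without saline replicate 1, up to 0.46) and Kcnh5 (-0.089 without saline replicate 1, up to 0.50). The cause was not tested. The other 832 values of the 44 pairs kept their direction and their side of the threshold, which none passed, but not their size. Named genes outside these pairs also turned. Calcium alpha1 genes did so with length and GC trends removed, and sodium alpha genes against saline without saline replicate 1 or 2. For 34 of 44 pairs of gene and comparison the value shrank by over 1.5 times or turned under at least 1 alternative, in 14 with length and GC trends removed, in 11 with a pseudocount of 1 RPKM and in 9 without saline replicate 1. Values under 0.5 RPKM are set by the floor of the table, and the part of depth in genes near it was not tested.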

Other observations

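The members differed in how steady they were within groups. The spread is given as the SD pooled over the 3 groups, as a percentage of the mean over the 9 libraries. Among the smallest were those of Kcnk2, a mechanosensitive leak channel (2.98%), Kcnk3 (3.76%), Scn2b (3.93%) and Kcna6, an axonal delayed rectifier (4.03%), against a median of 8.38% over the members and 7.21% over all genes tested. Kcna6 lay at 20.9, 20.02 and 22.4 RPKM in the C9orf72 ASO libraries, 21.3, 20.7 and 20.8 RPKM in the control ASO libraries and 20.8, 21.3 and 19.8 RPKM in the saline libraries, with overlap between all groups. Among members at 0.5 RPKM or more in every library, the largest were those of Kcnh5 (25.7%), Kcna2 (24.7%), Kcnk9 (23.1%), Kcnh8 (22.8%) and Kcng2 (20.8%). Kcnk9, the acid-sensitive leak channel related to Kcnk3, lay at 10.3, 12.1 and 8.31 RPKM in the C9orf72 ASO libraries, 16.5, 11.1 and 12.7 RPKM in the control ASO libraries and 8.67, 15.3 and 11.5 RPKM in the saline libraries. Kcnma1, the large-conductance calcium-activated channel, lay at 6.57, 7.36 and 5.86 RPKM in the C9orf72 ASO libraries, 7.92, 7.09 and 8.62 RPKM in the control ASO libraries and 5.14, 9.05 and 6.61 RPKM in the saline libraries, so that its saline libraries held both its lowest and its highest value. These genes were chosen after their values were seen.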
